A study of Homo sapiens with 6 samples.

Results

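The 10 genes described here encode adhesion molecules best known from the nervous system: the L1 family (L1CAM, CHL1, NRCAM and NFASC), the neural cell adhesion molecules NCAM1 and NCAM2, the activated leukocyte adhesion molecule ALCAM, and the teneurins TENM2, TENM3 and TENM4. They were chosen by gene family from the 58735 gene rows of a read count table, with the difference between the lines in these counts already known. Their differences are therefore given as a description, and no p-value is given for any of them. The table holds 3 RNA-seq libraries of PANC1, an established line from a human pancreatic duct carcinoma, grown without treatment. It also holds 3 libraries of PANC1OR, a subline of the same cells raised in rising amounts of oxaliplatin, a platinum drug that forms DNA adducts, and able to grow stably afterwards without it. Whether drug was present at harvest is not stated. The libraries of a line come from triplicate cultures, and each line is 1 lineage, so the spread covers cultures and not independent derivations of resistance.

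L1 family members span the membrane once. They and the NCAMs carry immunoglobulin and fibronectin type III repeats outside the cell, where they bind to themselves and to each other's families. Inside the cell L1 family members bind ankyrins, which tie them to the spectrin network, and NCAM1 can carry polysialic acid, a sugar chain that weakens adhesion. ALCAM (CD166) has immunoglobulin domains alone and binds itself or CD6 on lymphocytes. Teneurins are large type II membrane proteins that bind latrophilins, a group of adhesion G protein-coupled receptors, on a neighbouring cell. L1CAM is also known from pancreatic cancer, where it has been linked to motility and drug resistance.

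Regions before annotated starts of 4 members with large differences are shown so that the CpG content of genes that differed in each direction can be compared. Each line gives the 150 bases before a start site annotated by RefSeq (GRCh38.p14), 5′ to 3′, with CpG dinucleotides in capitals. The windows are chr3:105366759-105366908 (plus strand) for ALCAM, chr21:21147012-21147161 (plus) for NCAM2, chrX:153875945-153876094 (minus) for L1CAM and chr4:182143813-182143962 (plus) for TENM3. ALCAM and NCAM2 were higher in PANC1OR, and L1CAM and TENM3 were lower.
ALCAM: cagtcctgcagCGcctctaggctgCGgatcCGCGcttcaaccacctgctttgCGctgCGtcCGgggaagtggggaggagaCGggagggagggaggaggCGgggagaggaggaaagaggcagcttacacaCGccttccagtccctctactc
NCAM2: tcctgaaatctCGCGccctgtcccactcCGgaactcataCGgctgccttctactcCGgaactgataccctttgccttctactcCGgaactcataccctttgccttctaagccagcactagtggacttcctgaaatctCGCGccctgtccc
L1CAM: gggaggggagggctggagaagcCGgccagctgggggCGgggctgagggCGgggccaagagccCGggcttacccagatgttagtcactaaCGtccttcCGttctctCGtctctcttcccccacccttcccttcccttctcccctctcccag
TENM3: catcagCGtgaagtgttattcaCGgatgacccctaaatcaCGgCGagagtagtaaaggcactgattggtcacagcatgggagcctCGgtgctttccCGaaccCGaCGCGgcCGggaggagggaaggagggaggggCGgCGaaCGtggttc

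These windows held 10 CpG dinucleotides in ALCAM, 8 in NCAM2, 7 in L1CAM and 13 in TENM3. In the full RefSeq windows of 300 bases the GC content was 70.0% for ALCAM, 56.7% for NCAM2, 64.7% for L1CAM and 55.0% for TENM3, beside a median of 58.7% over 35114 such windows. The ratio of observed to expected CpG was 0.71, 0.77, 0.32 and 1.00 in the same order. The L1CAM window, which lies inside the gene, was thus GC-rich but CpG-poor. The GC box GGGCGG, searched on both strands, matched 1 time in ALCAM, 0 times in NCAM2, 4 times in L1CAM and 1 time in TENM3, and 45.0% of all windows held it. The E-box CAGGTG, bound by repressors such as ZEB1, matched 1 time in ALCAM and 0 times in the other 3, against 20.6% of all windows. The RE1 part TTCAGCACC, from the element bound by the neural gene repressor REST, was in 0.376% of all windows and in none of the windows of 9 members. The RefSeq windows include a second start for L1CAM, NFASC, TENM2 and TENM3 and further ones for CHL1 and NRCAM. Both L1CAM starts and the only NCAM2 start lie inside the genes' spans, so the values of these genes describe internal starts. The second TENM3 window had 75.7% GC, with 21 CpG dinucleotides in the 150 bases before its start, so TENM3 lay below or above the median of all windows depending on the start. The counts are per gene and do not show which start was used.

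Library totals ran from 10199268 to 26394388 reads assigned to genes. Levels are given as CPM, read counts divided by the TMM-scaled library size, and differences as log2 fold changes of PANC1OR over PANC1 with their standard error (SE). PANC1OR replicate 3 stood apart by base composition. Set against the other replicates of its line, the median log2 ratio was 1.32 over GC-rich genes (above 60% GC) and -0.95 over AT-rich ones (below 40% GC). For PANC1 replicate 2 these medians were 0.34 and -0.25. The epithelial keratins KRT8 and KRT18 were at 484 ± 256 and 338 ± 104 CPM (SD, n = 3) in PANC1 and at 429 ± 251 and 315 ± 114 CPM in PANC1OR. KRT19, a ductal keratin and the 1 gene called of 5 epithelial markers, fell from 326 ± 121 CPM in PANC1 to 23.3 ± 11.8 CPM in PANC1OR (-3.81 ± 0.43 in log2, adjusted p = 0.000635). The fibroblast list summed to 115 to 126 CPM in PANC1 and 121 to 309 CPM in PANC1OR, and its defining genes DCN and LUM had at most 3 reads in a line. THY1 was called lower, while COL1A1, COL3A1 and PDGFRB lay higher in every PANC1OR library than in any PANC1 library without being called (adjusted p = 0.123, 0.115 and 0.169). COL1A1 was at 95.3, 80.4 and 86.3 CPM in PANC1 and at 115, 109 and 291 CPM in PANC1OR. The neuroendocrine list summed to 21.7 to 32.6 CPM and 12.7 to 22.1 CPM, with 0 of 2 tested genes called. Of 6 neuronal markers, 2 passed the filter on low counts and 0 were called by edgeR, with summed levels of 9.71 to 14.0 CPM in PANC1 and 6.87 to 22.6 CPM in PANC1OR. STMN2, ELAVL4 and DCX, defining genes of neurons, had 0 or 1 read in each line. In the leukocyte list, CD14 was higher in PANC1OR (log2 fold change 3.24 ± 0.53). It passed the filter on low counts through PANC1OR alone, so no p-value is given. CD3E had 0 reads, and the summed level of the list was 0.245 to 0.436 CPM in PANC1 and 2.28 to 4.95 CPM in PANC1OR. The 5 glial markers summed to 0.498 to 1.57 CPM in PANC1 and 0.374 to 1.40 CPM in PANC1OR. The part of these markers in the results was not tested. In bulk RNA, more cells with a transcript and more transcript per cell cannot be told apart.

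**Figure D1:**
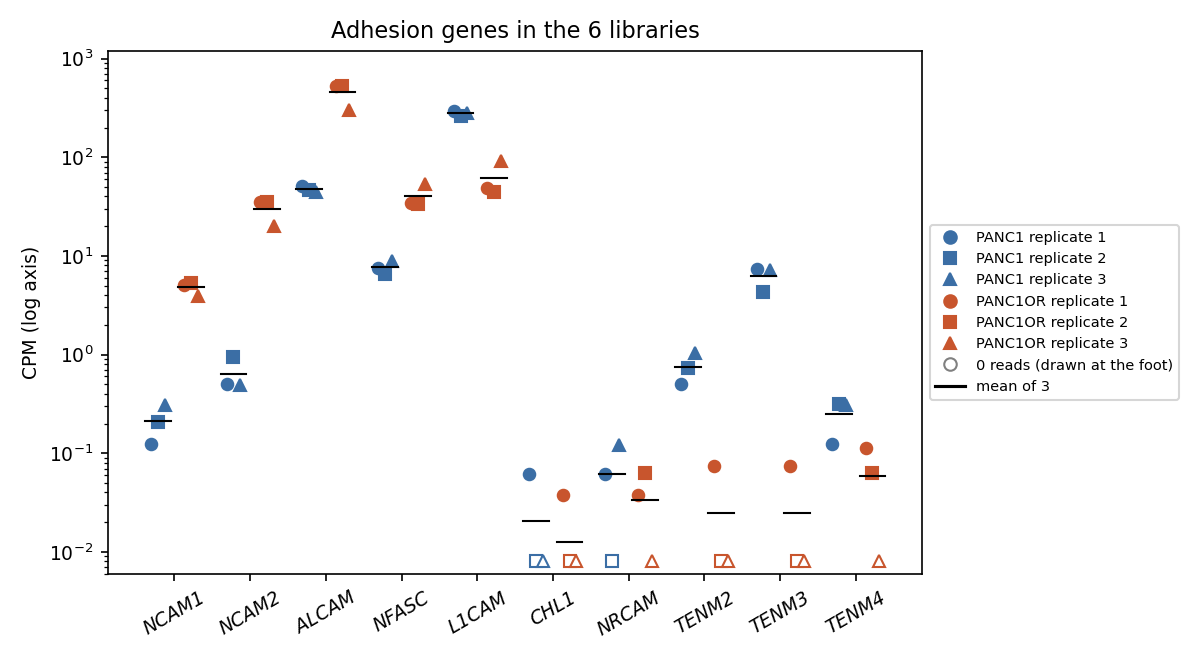
CPM of the 10 adhesion genes on a log axis in the 3 PANC1 libraries (blue) and the 3 PANC1OR libraries (orange), with the mean of 3 as a bar and libraries with 0 reads as open symbols at the foot. NCAM1, NCAM2, ALCAM and NFASC lie higher in every PANC1OR library than in any PANC1 library, and L1CAM, TENM2, TENM3 and TENM4 lie lower.

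The lines did not overlap in 8 of the 10 genes: 4 were higher and 4 lower in PANC1OR. Of all 37580 gene rows with a read, 25.1% did not overlap, 13.2% being higher and 11.9% lower in PANC1OR. Of the 10, 6 passed the filter on low counts, and TENM2, TENM4, CHL1 and NRCAM did not. By edgeR's quasi-likelihood test over all genes (adjusted p under 0.05), 4 of these 6 were called higher and 2 lower. Over all 18751 tested genes the called share was 17.8%, with 10.3% higher and 7.5% lower. Since the genes were chosen with this contrast known, and 2 of the 6 reached the filter level of 0.638 CPM in 1 line alone, nothing is read from either count.

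The NCAM genes were near the detection limit in PANC1 and clearly present in PANC1OR. NCAM1, the main carrier of polysialic acid, was at 0.125, 0.209 and 0.306 CPM in PANC1 replicates 1 to 3 and at 5.08, 5.37 and 3.96 CPM in PANC1OR replicates 1 to 3. These values rest on 9 reads in PANC1 and 270 in PANC1OR, and the log2 fold change was 4.44 ± 0.39 (SE). NCAM2, a close relative known from olfactory axons, was at 0.498, 0.940 and 0.489 CPM in PANC1 and at 34.9, 35.3 and 20.1 CPM in PANC1OR. Every PANC1OR library lay above every PANC1 library, and PANC1OR replicate 3 was the lowest of its line for both genes. The NCAM2 difference was 5.60 ± 0.39 on the log2 scale, from 25 reads in PANC1 to 1745 in PANC1OR. NCAM1 (ENSG00000149294) spans chr11:112961275-113278436 and NCAM2 (ENSG00000154654) chr21:20998409-21543329 in GENCODE 44 on GRCh38, both protein-coding genes on the plus strand.

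Of the genes that modify NCAM or signal from it, the polysialyltransferase gene ST8SIA4 was higher in PANC1OR as well. It was at 1.12, 0.522 and 0.917 CPM in PANC1 and at 27.8, 28.9 and 15.7 CPM in PANC1OR (log2 fold change 4.76 ± 0.38, adjusted p = 0.000132). ST8SIA2, the other enzyme that adds polysialic acid to NCAM, had 0 reads in all 6 libraries. Of 9 genes in this list 6 were tested, 1 rose and 2 fell, with a median log2 fold change of 0.07 beside 0.04 over all tested genes. FGFR2, a fibroblast growth factor receptor, fell from 2.14 ± 0.376 to 0.090 ± 0.0939 CPM (SD, n = 3). Its log2 fold change was -4.69 ± 0.67, and it was -3.86 without PANC1OR replicate 1 and -5.97 without PANC1OR replicate 2. FGFR2 passed the filter on low counts through PANC1 alone, so no p-value is given. FGFR1, the receptor form most studied with NCAM, was at 50.8 ± 11.1 and 66.3 ± 23.6 CPM (adjusted p = 0.429). FYN, a kinase that acts below NCAM1, fell by 1.05 ± 0.27 on the log2 scale (adjusted p = 0.0322). That call was lost without PANC1 replicate 1, 2 or 3 (adjusted p = 0.139, 0.0801 and 0.0685) and without PANC1OR replicate 1 or 2 (0.111 and 0.135). PRNP, the prion protein gene and an NCAM1 binding partner, was at 141 ± 4.02 and 214 ± 34.4 CPM (adjusted p = 0.0575).

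ALCAM was the most abundant of the 10 genes in PANC1OR. It was at 51.6, 46.5 and 44.7 CPM in PANC1 and at 529, 532 and 302 CPM in PANC1OR, a log2 fold change of 3.25 ± 0.27 (SE). All 3 PANC1OR libraries lay above PANC1, with replicate 3 again the lowest of its line, and the difference was 3.47 without it. ALCAM (ENSG00000170017) spans chr3:105366909-105576900. Of 5 genes in the list of its relatives and partners 4 were tested, 0 rose and 1 fell, while with GC offsets 3 were called higher and 1 lower. MCAM (CD146), a melanoma adhesion molecule, fell from 124 ± 11.2 to 28.7 ± 8.65 CPM (-2.12 ± 0.25, adjusted p = 0.000783). BCAM, a laminin receptor of the same group, was at 24.6 ± 1.87 and 38.9 ± 25.3 CPM (adjusted p = 0.337), with 68.1 CPM in PANC1OR replicate 3 and 26.0 and 22.7 CPM in replicates 1 and 2. CD6, the lymphocyte ligand of ALCAM, had 2 reads in PANC1 and 1 in PANC1OR. The galectin gene LGALS8 and the tetraspanin gene CD9 were not called, at adjusted p of 0.112 and 0.143. BCAM, CD9 and LGALS8 had positive log2 fold changes of 0.66, 0.66 and 0.64, and the list median was 0.65.

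Within the L1 family the expressed members differed in opposite directions. L1CAM was at 291, 264 and 281 CPM in PANC1 and at 49.3, 44.9 and 91.0 CPM in PANC1OR, where replicate 3 was the highest. Its log2 fold change was -2.18 ± 0.29 (SE), and -2.58 without PANC1OR replicate 3. All PANC1OR libraries lay below all PANC1 libraries. NFASC, which encodes neurofascin, a protein of axon initial segments and nodes of Ranvier, was at 7.60, 6.58 and 8.93 CPM in PANC1 and at 34.1, 33.2 and 53.3 CPM in PANC1OR. The NFASC difference was 2.38 ± 0.27, with no overlap between the lines. CHL1, the close homolog of L1, had 1 read in each line, and NRCAM, which encodes a neuronal member of the family, had 3 reads in PANC1 and 2 in PANC1OR. With so few reads no difference of CHL1 or NRCAM was detectable at this depth: 3 reads over a line correspond to 0.0715 CPM in PANC1 and 0.0547 CPM in PANC1OR. L1CAM (ENSG00000198910) lies on the minus strand at chrX:153861514-153886173 and NFASC (ENSG00000163531) on the plus strand at chr1:204828651-205022822.

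TENM3 and TENM2 were low in PANC1 and at the floor in PANC1OR, while TENM4 had few reads in both lines. TENM3 had 118, 41 and 117 reads in PANC1 (7.35, 4.28 and 7.16 CPM) and 2, 0 and 0 reads in PANC1OR. The ratio of PANC1 to PANC1OR was 180.4, with an exact 95% counting interval of 49.5 to 1497. TENM2 had 8, 7 and 17 reads in PANC1 and 2, 0 and 0 in PANC1OR, a ratio of 20.9 (5.34 to 180.1). TENM4 had 10 reads in PANC1 and 4 in PANC1OR, and the interval of its ratio, 0.942 to 14.3, spans 1. TENM1, which was no member of the chosen set, had 3 and 6 reads. Such intervals cover counting error only. TENM3 (ENSG00000218336) spans chr4:182143987-182803024, TENM2 (ENSG00000145934) chr5:166979029-168264157 and TENM4 (ENSG00000149256) chr11:78652829-79441030.

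The latrophilins, the receptors of teneurins, were also lower in PANC1OR for 2 of 3 genes. ADGRL2 (latrophilin 2) was at 45.9, 45.6 and 41.5 CPM in PANC1 and at 4.97, 3.81 and 2.81 CPM in PANC1OR (-3.50 ± 0.27, adjusted p = 0.000100). ADGRL3 (latrophilin 3) fell from 53 reads in PANC1 to 1 in PANC1OR, a ratio of 69.3 with a counting interval of 11.9 to 2787. It passed the filter on low counts through PANC1 alone, so no p-value is given. ADGRL1 (latrophilin 1) was at 50.0 ± 3.74 and 62.4 ± 30.4 CPM (adjusted p = 0.579). FLRT2, whose product binds latrophilins from the teneurin side of a contact, rose from 8.30 ± 0.868 to 103.7 ± 21.0 CPM (3.64 ± 0.24, adjusted p = 5.77e-05). FLRT3, a relative of it, had 0.843 ± 0.547 CPM in PANC1 against 2.51 ± 0.349 CPM in PANC1OR and missed the threshold (adjusted p = 0.0515). Of 7 genes in the teneurin partner list 6 were tested, 1 rose and 2 fell, with a median log2 fold change of 0.17.

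**Figure D2:**
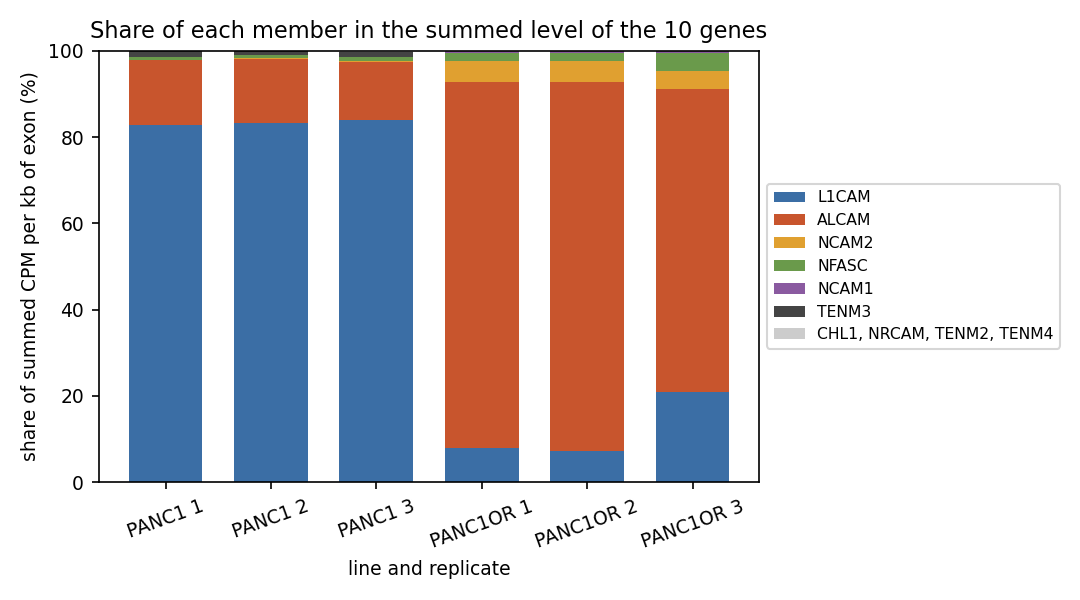
Share of each member in the summed level of the 10 genes, in CPM per kilobase of exon, for each library. L1CAM holds 82.9% to 83.9% in the PANC1 libraries and ALCAM 70.3% to 85.6% in the PANC1OR libraries.

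Divided by exon length, so that genes can be compared, the order of the members differed between the lines. In PANC1 the levels per kilobase of exon were 38.4 ± 1.86 CPM for L1CAM, 6.63 ± 0.499 for ALCAM, 0.521 ± 0.143 for TENM3 and 0.362 ± 0.0554 for NFASC (SD, n = 3). NCAM2 followed with 0.0775 ± 0.0311, TENM2 with 0.0355 ± 0.0128, NCAM1 with 0.0168 ± 0.00715 and TENM4 with 0.0151 ± 0.00651 CPM per kilobase. The libraries of TENM2 overlapped with those of NCAM1, and those of NCAM1 with those of TENM4. TENM3 and NFASC were close, and their libraries overlapped: PANC1 replicate 2 had 0.357 CPM per kilobase for TENM3, and replicate 3 had 0.420 for NFASC. In PANC1OR the order was ALCAM with 63.3 ± 18.4, L1CAM with 8.49 ± 3.50, NCAM2 with 3.64 ± 1.05, NFASC with 1.89 ± 0.535 and NCAM1 with 0.379 ± 0.0586 CPM per kilobase. NFASC exceeded NCAM2 in PANC1OR replicate 3 (2.51 against 2.43), so these neighbours in the order were not separated in every library. The share of L1CAM in the summed level of the 10 genes was 82.9%, 83.2% and 83.9% in PANC1 and 7.83%, 7.14% and 20.9% in PANC1OR. The share of ALCAM was 14.9%, 14.8% and 13.5% in PANC1 and 85.0%, 85.6% and 70.3% in PANC1OR. The level of ALCAM over that of L1CAM was 0.161 to 0.180 in the PANC1 libraries, and 10.85, 11.998 and 3.36 in PANC1OR replicates 1 to 3. The lengths are the merged exons of GENCODE 44, from 7179 bases in ALCAM to 21297 in TENM2, and a line that uses a short isoform would have a higher level per length.

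**Figure D3:**
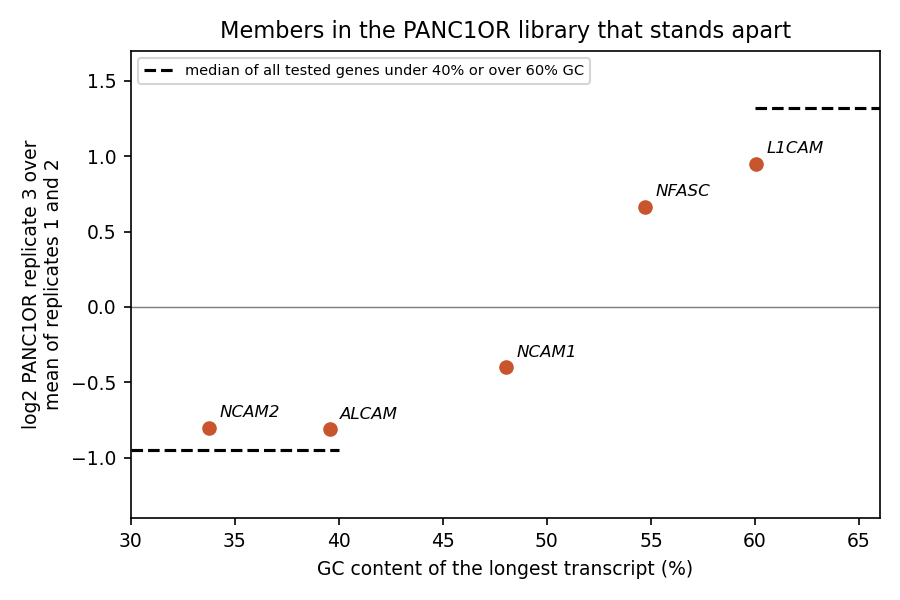
Log2 ratio of PANC1OR replicate 3 to the mean of replicates 1 and 2 (vertical axis) against the GC content of the longest transcript (horizontal axis) for the 5 members with reads in all 3 libraries. NCAM2 and ALCAM lie at -0.80 and -0.81, near the dashed median of all tested genes under 40% GC, and L1CAM lies at 0.95, below the dashed median of genes over 60% GC.

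In the library that stood apart, the members of lower GC content lay below the other PANC1OR replicates and those of higher GC content above them. The log2 ratio of PANC1OR replicate 3 to replicates 1 and 2 was -0.80 for NCAM2 (33.8% GC in its longest transcript), -0.81 for ALCAM (39.6%), -0.40 for NCAM1 (48.0%), 0.66 for NFASC (54.7%) and 0.95 for L1CAM (60.04%). When the fit took each library's GC trend into account through offsets, the log2 fold changes between the lines were 5.51 for NCAM2, 3.17 for ALCAM, 4.45 for NCAM1, 2.34 for NFASC and -2.24 for L1CAM. Without PANC1OR replicate 3 they were 5.84, 3.47, 4.55, 2.10 and -2.58 in that order. The direction of these 5 genes was the same in all 13 alternative fits.

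**Figure D4:**
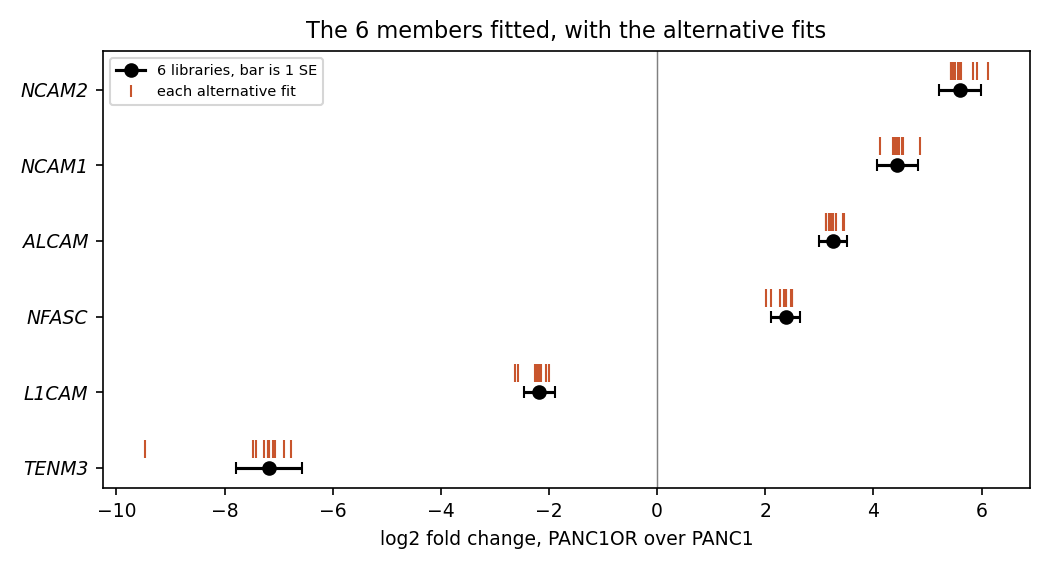
Log2 fold change of PANC1OR over PANC1 for the 6 members that passed the filter (black, with 1 SE) and the value in each of 13 alternative fits (orange ticks). No tick crosses 0, and the TENM3 value of -9.47 is from the fit without PANC1OR replicate 1, where no read of it is left in PANC1OR and the fitted value depends on the prior count.

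Of 103 genes known to work with these molecules or resemble them, in 10 lists, 62 were tested, 16 rose and 14 fell. The called share of 48.4% stands beside 17.8% over all tested genes, and the median log2 fold change was 0.09. Of the 30 called genes, 7 reached the filter level in 1 line alone and so had to differ. They include ADGRL3, FGFR2, CADM2, DSCAML1, NLGN1 and SOX2, for which no p-value is given. The 7th is among CADM1, KIRREL2, NEGR1 and NLGN3, so nothing is read from the adjusted p given for these below. Among the genes that reached the filter level in both lines, 41.8% of 55 partners and 14.7% of all 17889 were called. The lists were chosen with earlier results of these data known, so nothing is read from the shares or counts of their calls. Without PANC1OR replicate 3, 23 rose and 17 fell of 62, beside 44.1% called over all genes. In the 6 fits without 1 library, 22 of the 30 calls were kept each time, and the other 8 (FYN, CNTNAP1, EZR, ITGA5, ITGB3, KIRREL2, NEGR1 and NLGN2) are given with their values beside their lists.

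In the list of ankyrin and spectrin anchors of L1 family proteins, most called genes were higher in PANC1OR. The list also holds genes that are neither ankyrins nor spectrins, among them DLG3 and EZR. Of 14 genes 11 were tested, 5 rose and 1 fell, with a median log2 fold change of 0.45. ANK2, which encodes ankyrin B, was at 12.1, 8.46 and 12.05 CPM in PANC1 and at 78.3, 71.9 and 65.4 CPM in PANC1OR (2.72 ± 0.23, adjusted p = 0.000154). ANK1, the ankyrin gene of red cells, rose from 46.8 ± 3.50 to 194.6 ± 52.3 CPM (2.06 ± 0.23, adjusted p = 0.00063). ANK3, which encodes ankyrin G, the partner of neurofascin at the axon initial segment, had 9 reads in PANC1 and 12 in PANC1OR. SPTB, a beta spectrin gene, rose by 2.95 ± 0.38 (adjusted p = 0.00127), and DLG3, which encodes the scaffold SAP102, rose by 2.02 ± 0.28 (adjusted p = 0.0017). SPTBN1, the broadly expressed beta spectrin gene, rose from 802 ± 64.4 to 1669 ± 164 CPM (1.06 ± 0.18). EZR, which encodes the membrane-actin linker ezrin, had a log2 fold change of -0.87 ± 0.24 (adjusted p = 0.042). Its call was kept without PANC1OR replicate 3 and lost in the other fits without 1 library, at adjusted p of 0.0897, 0.126, 0.0824, 0.137 and 0.130 without PANC1 replicates 1, 2 and 3 and PANC1OR replicates 1 and 2. SPTBN1 and EZR were named after their values were seen.

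Co-receptors and ligands of the L1 family divided evenly, with 2 risen and 2 fallen of 7 tested from 9 listed and a median of -0.09. The neuropilins, semaphorin receptors that pair with L1 family members, went opposite ways. NRP1 was at 80.1, 63.7 and 74.4 CPM in PANC1 and at 291, 281 and 241 CPM in PANC1OR (1.90 ± 0.18, adjusted p = 0.000303). NRP2 was at 24.0, 21.6 and 19.7 CPM in PANC1 and at 0.635, 0.500 and 0.908 CPM in PANC1OR (-5.01 ± 0.30, adjusted p = 3.62e-05). The integrin gene ITGA5, part of the fibronectin receptor, rose by 1.02 ± 0.27 (adjusted p = 0.0358), with 0.64 without PANC1OR replicate 3. ITGB3, whose product pairs with the alpha v integrin to bind L1CAM, fell by 1.14 ± 0.22 (adjusted p = 0.00939). The ITGA5 call was lost without PANC1 replicate 1, 2 or 3 (adjusted p = 0.142, 0.102 and 0.149), and the ITGB3 call without PANC1 replicate 3 (adjusted p = 0.0640). EGFR, which L1CAM can engage, was at 720 ± 121 and 674 ± 20.4 CPM (adjusted p = 0.789).

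The contactins and their Caspr partners, which bind L1 family members at nodes, were mostly silent: 3 of 11 were tested, 2 rose and 0 fell, and the median was 1.11. CNTNAP3 rose from 2.32 ± 0.367 to 34.5 ± 6.06 CPM (3.90 ± 0.27, adjusted p = 6.58e-05), and since near-identical copies of this gene exist its share of reads is uncertain. CNTNAP1, which encodes Caspr, rose by 1.11 ± 0.25 (adjusted p = 0.0176), a call lost without PANC1 replicate 1, 2 or 3 (0.0891, 0.0742 and 0.0836). CNTNAP4 was not tested, with 0 reads in PANC1 and 31 in PANC1OR, at least 7.91-fold higher from a floor of 3 reads over PANC1; it was named after its value was seen. CNTN2 was at 1.39 ± 0.360 and 1.02 ± 0.311 CPM (adjusted p = 0.445), and CNTN1, CNTN3, CNTN4, CNTN5 and CNTN6 had at most 2 reads in a line.

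Of the proteases that cut these molecules from the surface, 0 of 7 tested genes were called by edgeR's quasi-likelihood test, with 1 at an unadjusted p under 0.05, and DESeq2 and edgeR's likelihood ratio test also called 0. Without PANC1OR replicate 3 the count was 1, and with GC offsets 3. ADAM17 was at 87.1 ± 3.19 and 128 ± 23.9 CPM (adjusted p = 0.0895) and ADAM10 at 160 ± 23.8 and 171 ± 52.1 CPM (adjusted p = 0.849). BACE1, the beta secretase that cuts CHL1 and L1CAM, was at 18.3 ± 2.79 and 13.6 ± 0.367 CPM (adjusted p = 0.222). ADAM8, a sheddase of CHL1, and PSEN2, a presenilin of the gamma secretase, had adjusted p of 0.306 and 0.427. The list median was 0.10.

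**Figure D5:**
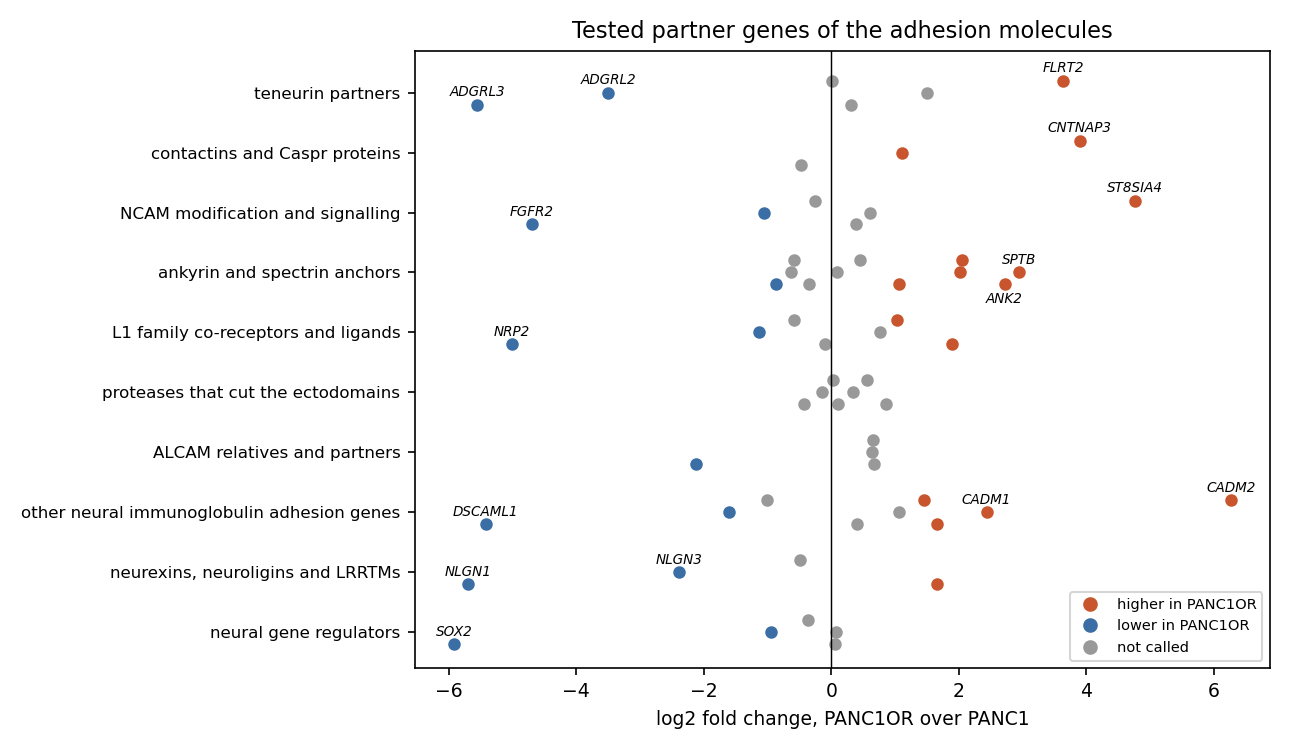
Log2 fold change of PANC1OR over PANC1 for the tested genes of the 10 partner lists, with genes called higher in orange, called lower in blue and not called in grey. CADM2 lies farthest to the right at 6.27, and the values of ADGRL3, DSCAML1, NLGN1 and SOX2 are fitted from at most 3 reads in PANC1OR.

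Other immunoglobulin adhesion genes of the nervous system had 9 of 15 tested, of which 4 rose and 2 fell, with a median of 1.06. CADM2, a synaptic adhesion gene, was at 0.187, 0.209 and 0.428 CPM in PANC1 and at 24.7, 20.9 and 21.6 CPM in PANC1OR (6.27 ± 0.35). CADM2 passed the filter on low counts through PANC1OR alone, so no p-value is given. Its relative CADM1 rose by 2.43 ± 0.29 (adjusted p = 0.000916), and NEGR1, a gene of the IgLON group, by 1.65 ± 0.32 (adjusted p = 0.00951; 0.0578 without PANC1 replicate 1). KIRREL1, a nephrin-like adhesion gene, fell from 283 ± 21.4 to 92.8 ± 21.5 CPM (-1.61 ± 0.21, adjusted p = 0.00141). Named after their values were seen, KIRREL2 rose by 1.45 ± 0.30 (adjusted p = 0.0113; 0.0686 and 0.0727 without PANC1 replicates 1 and 3) and DSCAML1 fell from 47 reads to 1, a ratio of 61.4 (10.5 to 2477). Of the neurexins, neuroligins and LRRTM genes 4 of 11 were tested, 1 rose and 2 fell, with a median of -1.44. NLGN1 (neuroligin 1), a postsynaptic adhesion gene, fell from 136 reads to 3, a ratio of 59.3 with an interval of 19.9 to 290.9, and NLGN3 fell by 2.39 ± 0.42 (adjusted p = 0.00567). NLGN2 rose by 1.66 ± 0.35 (adjusted p = 0.0139), with 131 CPM in PANC1OR replicate 3 and 58.3 and 57.3 CPM in replicates 1 and 2. Its call was lost without PANC1 replicate 1, 2 or 3 (0.0613, 0.0760 and 0.0640). LRRTM2, a postsynaptic neurexin ligand, was not called (adjusted p = 0.535). Since 1 of CADM1, KIRREL2, NEGR1 and NLGN3 reached the filter level in 1 line alone, nothing is read from their adjusted p.

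Among 14 regulators of neural genes 5 were tested, 0 rose and 2 fell, with a median of -0.36. SOX2, a stem cell and neural progenitor factor, fell from 66 reads in PANC1 to 1 in PANC1OR, a ratio of 86.3 (15.0 to 3458). It passed the filter on low counts through PANC1 alone, so no p-value is given. SIN3A, a corepressor that REST recruits, fell from 233 ± 4.36 to 120.6 ± 5.60 CPM (-0.95 ± 0.16, adjusted p = 0.00426). REST itself was at 85.1 ± 7.73 and 89.1 ± 22.1 CPM (adjusted p = 0.887) and ZEB1 at 91.5 ± 10.2 and 95.6 ± 22.0 CPM (adjusted p = 0.889). RCOR1, a further corepressor in the REST complex, was not called (adjusted p = 0.209). NEUROD1, a proneural factor, had 0 reads in all 6 libraries.

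The genes next to the members were compared because position was not part of the choice. Of the 19 nearest tested protein-coding genes, 4 were higher and 2 lower (31.6%, beside 17.8% over all tested genes). FAM181B, among the 4, reached the filter level in PANC1OR alone and so had to differ, and the share includes it. AVPR2, with 10, 8 and 12 reads in PANC1OR replicates 1 to 3, reached that level there in replicate 3 only. It passed the filter largely through PANC1, which limits what its call shows. AVPR2, a vasopressin receptor gene 16.4 kb from L1CAM, was lower like its neighbour, with mean levels of 3.40 and 0.621 CPM in PANC1 and PANC1OR (log2 fold change -2.51 ± 0.44, adjusted p = 0.00546). PDZD4, 30.9 kb away on the other side, was not called (adjusted p = 0.548). ALCAM lies between NFKBIZ and CBLB, which were not called (0.299 and 0.618), and TENM3 between AGA and DCTD, which were not called either (0.542 and 0.675). NCAM1 lies 36.1 kb from TTC12 (-0.61 ± 0.19, adjusted p = 0.0619), the nearer of its neighbours. The tested neighbours of NCAM2 lie 3179 and 4042 kb away: C21orf91 was lower (-1.35 ± 0.32, adjusted p = 0.0219) and MRPL39 higher (0.82 ± 0.24, adjusted p = 0.0494). LRRN2, 142.9 kb from NFASC, LAMB1, 144 kb from NRCAM, and FAM181B, 3289 kb from TENM4, were higher, by 1.80 ± 0.37, 2.22 ± 0.16 and 4.43 ± 0.65. In the fits without 1 library the highest adjusted p was 0.0264 for AVPR2 and 0.00221 for LAMB1. MRPL39 was called only without PANC1OR replicate 3 in those fits (0.113 to 0.202 otherwise). C21orf91 lost its call without PANC1 replicate 1 or 3 or PANC1OR replicate 2 (0.0825, 0.100 and 0.0617) and LRRN2 without PANC1 replicate 1, 2 or 3 (0.0658, 0.0600 and 0.0572).

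Some members share their locus with RNA genes. L1CAM-AS1, on the strand opposite L1CAM, was lower in PANC1OR, with 17 reads against 86 in PANC1 (log2 fold change -2.61 ± 0.50). It passed the filter on low counts through PANC1 alone and overlaps a chosen member, so no p-value is given. TENM3-AS1 had 19 reads in PANC1 and 2 in PANC1OR. The sources used here do not give the strand setting of the counting, so reads of a gene and of its antisense partner cannot be told apart. RPL13AP11, a processed pseudogene inside NFASC on the same strand, had 9 and 61 reads. NCAM1-AS1 had 0 and 3 reads, and CHL1-AS1 and CHL1-AS2 had 0 in both lines.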

How the data were processed

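Libraries from an mRNA kit of 3 PANC1 and 3 PANC1OR cultures were compared. The authors deposited raw integer counts, 1 per gene and library. Per the submitters' processing notes and design text, the reads passed through FastQC 0.11.5, cutadapt through Trim Galore 0.4.2, STAR 2.5 on GRCh38 and featureCounts of Subread 1.6.2, and the authors tested with edgeR 3.24.3 and a likelihood ratio test. The sources used here do not state annotation release, strand or multimapping settings. The table has 5 further columns without values.

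Genes were filtered with filterByExpr (18751 kept), scaled with TMM and tested across all genes with edgeR 4.0.16 (R 4.3.3), quasi-likelihood F test, all 6 libraries, no covariates, Benjamini-Hochberg adjusted p under 0.05. The script was tested on simulated data. The log2 fold change is positive where PANC1OR was higher, and its SE derives from the F statistic. Positions, exon lengths and GC are from GENCODE 44, promoters from RefSeq, which held 9 of the 10 members and not NCAM1.

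The members and lists were chosen with earlier results of these data known. Named were all members, up to 4 genes of a partner list with the smallest p and a mean of at least 1 CPM, the called genes of lists with 5 or fewer calls, and called neighbours. Chosen outside this rule, with their values seen, were SPTBN1, EZR, KIRREL2, DSCAML1, CNTNAP4, FGFR1, EGFR, ADAM10, the partner genes given with few or 0 reads and the uncalled neighbours. Alternatives were edgeR's likelihood ratio test, DESeq2 1.42.0, RLE factors, no filter, the replicate number as a block, GC offsets and leaving out each library.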

Additional observations from a re-analysis of the deposited data

How the results depend on the processing

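Of the 6 fitted members, all kept their direction in the 13 alternatives, and the count of called members, which were chosen on this contrast, was 6 or 7. The count over all genes, 3345 with 6 libraries, was 7307 with GC offsets, 1821 to 8663 without 1 library and 11422 with PANC1 replicate 2 and PANC1OR replicate 3 both left out, an alternative chosen after seeing the data. The partner count of 30 was 46 with GC offsets, 23 to 40 without 1 library and 56 with both left out, and the neighbour count of 6 was 11, 3 to 14 and 16. Without PANC1OR replicate 3 14 neighbours were called, and 3 without PANC1 replicate 1 or 3.

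Same-numbered libraries of the lines deviated together for number 1 only (correlations of 0.46, -0.45 and -0.22 for numbers 1 to 3), so the numbers were not treated as pairs. With the replicate block, 2324 genes, 6 members, 27 partners and 5 neighbours were called. No replicate pair agreed within sampling noise (lowest chi-square 3.99 per degree of freedom). Depth limits CHL1, NRCAM and TENM4, with at most 10 reads in a line.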
